A study of Mus musculus with 6 samples.

Results

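Contacts of the X-inactivation centre, the stretch of the mouse X chromosome that holds Xist and most of its known regulators, were compared between day 4 and day 7 of stem cell differentiation. They were measured by capture Hi-C, in which DNA that is close together in the nucleus is ligated, RNA probes select the ligation products of one region, and read pairs are counted for every pair of bins. All libraries came from female mouse embryonic stem cells (strain CAST/EiJ x 129S1), in which reads can be assigned to either parental X chromosome. The comparison used 2 of the 6 libraries and 2 of the 7 deposited maps, chosen as the only maps of all reads for these days. The day 4 library was untransfected. These cells had differentiated without LIF as embryoid bodies, which were moved to gelatinized plates on that day, and whether they were taken before or after the move is not stated. The day 7 library was control library 1, from cells that had been trypsinized, nucleofected with a scrambled locked nucleic acid (LNA), replated and collected after 8 hours. Time in culture and the transfection therefore cannot be told apart. The day 0 map, from untransfected undifferentiated cells grown on feeder cells with LIF, gave the level before differentiation.

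Each map divided X 100215001 to 101265000 (mm9) into 210 bins of 5 kb, and all 21736 pairs of bins at a separation of 10 kb or more were used, of 22155 pairs in all. A contact level here is the signal of a bin pair, or the mean over many, divided by the mean signal of the same map at the same separation, so a level of 1 is the average for that distance. With 1 library on each side nothing could be tested against the spread between libraries or cultures. Log2 ratios carry a 95% interval that covers counting error and nothing else, and reads copied by PCR from the same ligation event are not independent. Rose and fell are used only where that interval excluded 0. The cas and mus maps of the day 7 control, taken as the parental alleles, combined 2 libraries and included the one compared here, so they are no independent check. The labels do not say which of these alleles was inactive. The labelled cell type could not be checked, since contact maps hold no marker levels.

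Female mammalian cells silence an X chromosome during early differentiation, when the noncoding RNA Xist is made from it and spreads over it. Tsix, transcribed across Xist in the opposite direction, represses it, while Jpx, Ftx and the ubiquitin ligase gene Rlim lie on the other side and are known as activators. In undifferentiated cells the promoters of Tsix and Xist belong to separate neighbouring domains of frequent contact, whose border lies between these promoters. The genes were therefore grouped as Tsix side (Nap1l2, Cdx4, Chic1, Tsx and Tsix) and Xist side (Xist, Jpx, Ftx, Zcchc13 and Rlim).

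Windows reached 10 kb to each side of the promoters of Tsix (100626856), Xist (100678556), Jpx (annotated as Enox, 100688895) and Rlim (101176623). For the other genes they reached 10 kb beyond the gene body, which placed Ftx (annotated as B230206F22Rik, minus strand, starting at 100819093) and Zcchc13 (100825925 to 100827003) side by side. Windows of Xist and Jpx, of Tsx and Tsix, and of Ftx and Zcchc13 share bins, so their pairs were not independent. Contacts recovered from the signal numbered 81076 at day 4 and 80864 at day 7 at 10 kb or more (80034 at day 0), so the maps compared were of nearly equal depth. The allelic maps held 33822 (cas) and 24802 (mus). At day 4 30.4% of the bin pairs held no contact and at day 7 30.2%, so single bin pairs were not read.

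The main late gains described below joined the windows of Xist and Jpx to a stretch from 100790001 to 100880000, which holds the start of Ftx and Zcchc13. Both ends held a match to a shortened form of the motif of CTCF, a DNA-binding protein found at many domain borders and loop ends. The form searched on both strands was CC, 3 bases of any kind, AGG, any base, GGC, any base and G. It was taken after the match positions of 7 patterns had been looked at, which had between 2 and 158 matches in the region, and 5 of the 7 had a match in the Xist window and 5 in the Ftx window. Matches to the form taken lay in 11 of the 210 bins (5.24%), against 2.79% of all 5 kb windows of the X chromosome without unknown bases. The 5 matches inside locus windows are shown in mm9 with 8 bases to each side, 5′ to 3′ on the strand of the match, with the match in capitals.
Xist and Jpx windows, chrX:100679571-100679584, plus strand, 1015 bases upstream of the Xist promoter and in an exon of Tsix: tgaataaaCCAGCAGGTGGCAGcatgaatc
Ftx, chrX:100812262-100812275, plus strand, in an exon: agaagcttCCTTCAGGCGGCGGacgcggcg
Tsix, chrX:100630114-100630127, plus strand, in an intron: tcatccctCCCCGAGGAGGCAGttaacagt
Tsx, chrX:100615330-100615343, minus strand, in an intron: cccaccagCCCTCAGGAGGCAGaggcaacc
Nap1l2, chrX:100381764-100381777, plus strand, in an exon: gagatgaaCCAAGAGGCGGCGGcggctgca
These letters are a description of the windows and not evidence of binding. The windows of Rlim, Chic1, Cdx4 and Zcchc13 held none of them.

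Across the whole region the step from day 4 to day 7 was small beside the step from day 0 to day 4. In pairs of 30 kb tiles, 32 of 625 rose (5.12%) and 44 fell (7.04%) from day 4 to day 7, so 12.2% were called where counting error alone would place 5% outside the interval. From day 0 to day 4, 131 of 617 tile pairs rose (21.2%) and 98 fell (15.9%), together 37.1%. From day 0 to day 7 the shares were 22.3% up and 16.5% down, together 38.8%. A change of at least 1.5-fold was called in 3.52% of the tile pairs in the later step and in 24.1% in the earlier one. Calls of the later step were most frequent for tiles 60 to 120 kb apart (21.9%) and 150 to 270 kb apart (17.9%) and least frequent from 510 kb (4.82%). Dividing each map by its total, with no correction for separation, left 15 rises and 67 falls, with the median tile at a log2 ratio of -0.08 against -0.01.

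Of the 45 pairs of the 10 genes, 5 rose (11.1%) and 10 fell (22.2%) between day 4 and day 7, with a median log2 ratio of -0.08. These shares stand beside 5.12% and 7.04% of tile pairs, but gene windows differ in size from the tiles and share bins. Rises lay within the Xist side, where 4 of 10 pairs rose and 2 fell, and across the border, where 1 of 25 rose and 5 fell. Within the Tsix side 3 of 10 pairs fell and 0 rose. The day 4 map enters both steps, so an error in a day 4 value moves the ratios of that pair in opposite directions. The values of both steps are therefore given side by side, and no agreement or opposition between them is counted.

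**Figure D1:**
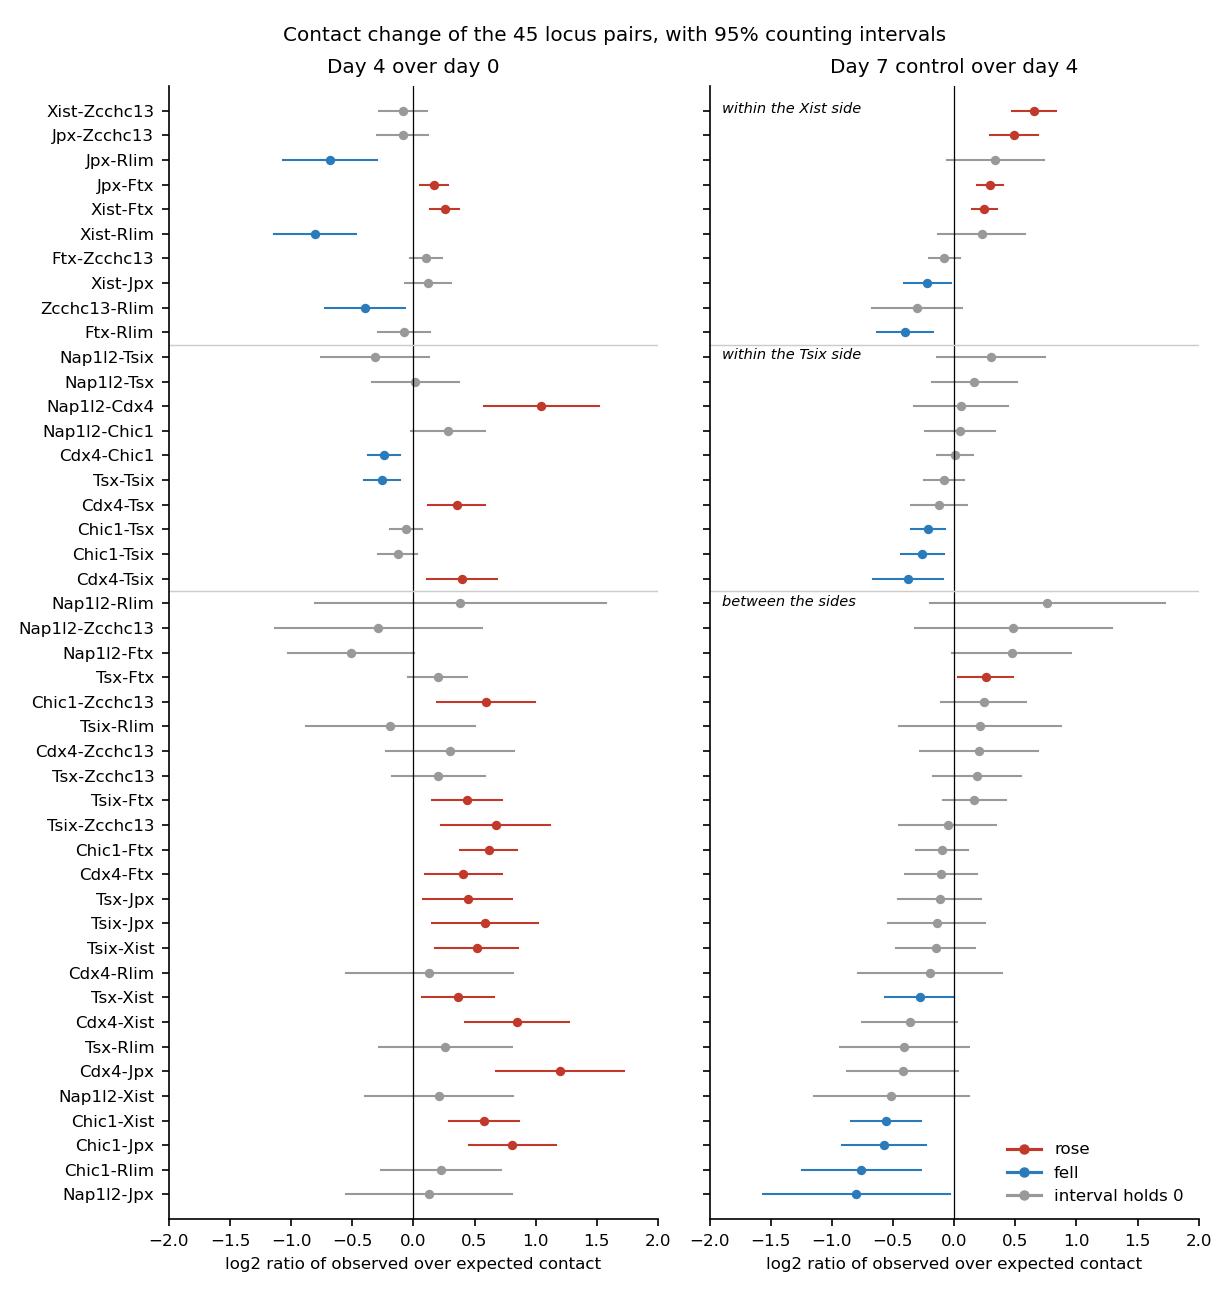
Log2 ratios of observed over expected contact for the 45 gene pairs, day 4 over day 0 (left) and day 7 control over day 4 (right), with 95% intervals for counting error; red marks pairs that rose, blue pairs that fell. In the right panel 5 of the 45 pairs rose, led by Xist-Zcchc13, and 10 fell, led by Nap1l2-Jpx; both panels share the day 4 map.

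Among contacts of Xist and Jpx with other genes, those with the start of Ftx and with Zcchc13 were late gains. Xist, whose RNA coats the silenced X chromosome, contacted the window of Zcchc13, a protein-coding gene beside the Ftx start, at levels of 2.52, 2.38 and 3.74 on days 0, 4 and 7 (446, 413 and 657 contacts). It was thus flat over the first step (log2 ratio -0.09, -0.28 to 0.11) and rose 1.57-fold over the second (0.65, 0.47 to 0.84). Jpx, a noncoding RNA gene and activator of Xist, contacted Zcchc13 at 2.30, 2.17 and 3.04 (403, 372 and 533 contacts), with log2 ratios of -0.09 (-0.30 to 0.12) and then 0.49 (0.29 to 0.68). Neither pair had moved beyond counting error by day 4, and both stood above their day 0 level at day 7, by 0.57 (0.39 to 0.74) and 0.40 (0.21 to 0.59). With flanks of 5 kb the later step of Jpx-Zcchc13 was 0.31 (-0.07 to 0.68), no longer a call.

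Contacts with the whole Ftx window, a noncoding RNA gene known to promote Xist expression, rose in both steps. Xist-Ftx stood at 1.81, 2.16 and 2.56 (1105, 1436 and 1695 contacts), with log2 ratios of 0.26 (0.14 to 0.37) and then 0.25 (0.14 to 0.35). Jpx-Ftx stood at 1.91, 2.14 and 2.62 (1158, 1425 and 1751 contacts), with 0.17 (0.05 to 0.28) and then 0.29 (0.19 to 0.40). The day 7 level lay between the alleles in these 4 pairs, with mus the higher. Xist-Zcchc13 was at 2.96 on cas and 4.75 on mus, and Xist-Ftx at 1.92 and 2.90. Jpx-Zcchc13 was at 2.58 on cas and 3.81 on mus, and Jpx-Ftx at 2.01 and 2.90. The cas levels of Xist-Ftx and Jpx-Ftx were below those of the day 4 map of all reads, in which both alleles are mixed.

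The Ftx window is long, and a profile in 10 kb steps, chosen after the gene pairs had been seen, separated its ends. Over all 99 steps measured from the Xist window, 12 rose (12.1%) and 8 fell (8.08%) between day 4 and day 7. Every one of the 9 neighbouring steps from 100790001 to 100880000 rose, from the first part of Ftx, which is transcribed leftwards, across its start and Zcchc13 and beyond. The level was highest in the step of the Ftx start, 100810001 to 100820000, which also holds the motif match, at 3.65, 3.49 and 5.13 (288, 280 and 413 contacts). Its log2 ratio was -0.06 (-0.30 to 0.18) in the first step and 0.55 (0.33 to 0.77) in the second, and the alleles stood at 3.27 (cas) and 5.75 (mus). The highest ratio of the 9 was at 100850001 to 100860000, with 1.85, 1.85 and 3.26 (0.82, 0.46 to 1.17). Nearer to Xist, at the far end of Ftx, a step had gained early. That at 100750001 to 100760000 had gone from 0.945 to 1.5 by day 4 (0.66, 0.25 to 1.08) and fell to 1.13 at day 7 (-0.40, -0.78 to -0.03), a call lost under 3 of 7 other settings. The step at 100770001 to 100780000 went from 1.12 to 1.83 (0.70, 0.27 to 1.14) and stood at 1.55 (-0.24, -0.61 to 0.14).

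The Jpx window, which shares bins with that of Xist and so is no independent view, showed the same place of gain. Of its 95 steps, 9 rose (9.47%) and 7 fell (7.37%), and 8 of these 9 lay between 100790001 and 100880000, where the step at 100830001 was the one not called (0.34, -0.00 to 0.68). The remaining rise was at 101250001 to 101260000 (1.90). At the Ftx start its level was 3.70, 3.30 and 4.79, with log2 ratios of -0.16 (-0.41 to 0.08) and 0.54 (0.31 to 0.76). Seen from the Zcchc13 window, which reads some of the same bin pairs from the other end, 7 of 94 steps rose (7.45%) and 6 fell (6.38%). The 3 steps from 100660001 to 100690000, which span the start of Xist, were among the rises. The one at 100670001 to 100680000, with the Xist promoter, went from 2.34 to 3.81 between day 4 and day 7 (159 and 262 contacts, 0.71). For Tsix no gain of this kind was called. Of 101 steps from its promoter window 1 rose (0.99%) and 4 fell (3.96%), and its contact with 100815001 to 100865000 was 0.479 at day 0, 0.904 at day 4 and 0.909 at day 7. The step before it, 100765001 to 100815000 in Ftx, stood at 0.448, 0.528 and 0.664 from Tsix (later step 0.33, -0.01 to 0.67) and at 1.86, 2.24 and 2.61 from Xist (0.22, 0.09 to 0.36). Whether Tsix and Xist differ in these changes was not tested.

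**Figure D2:**
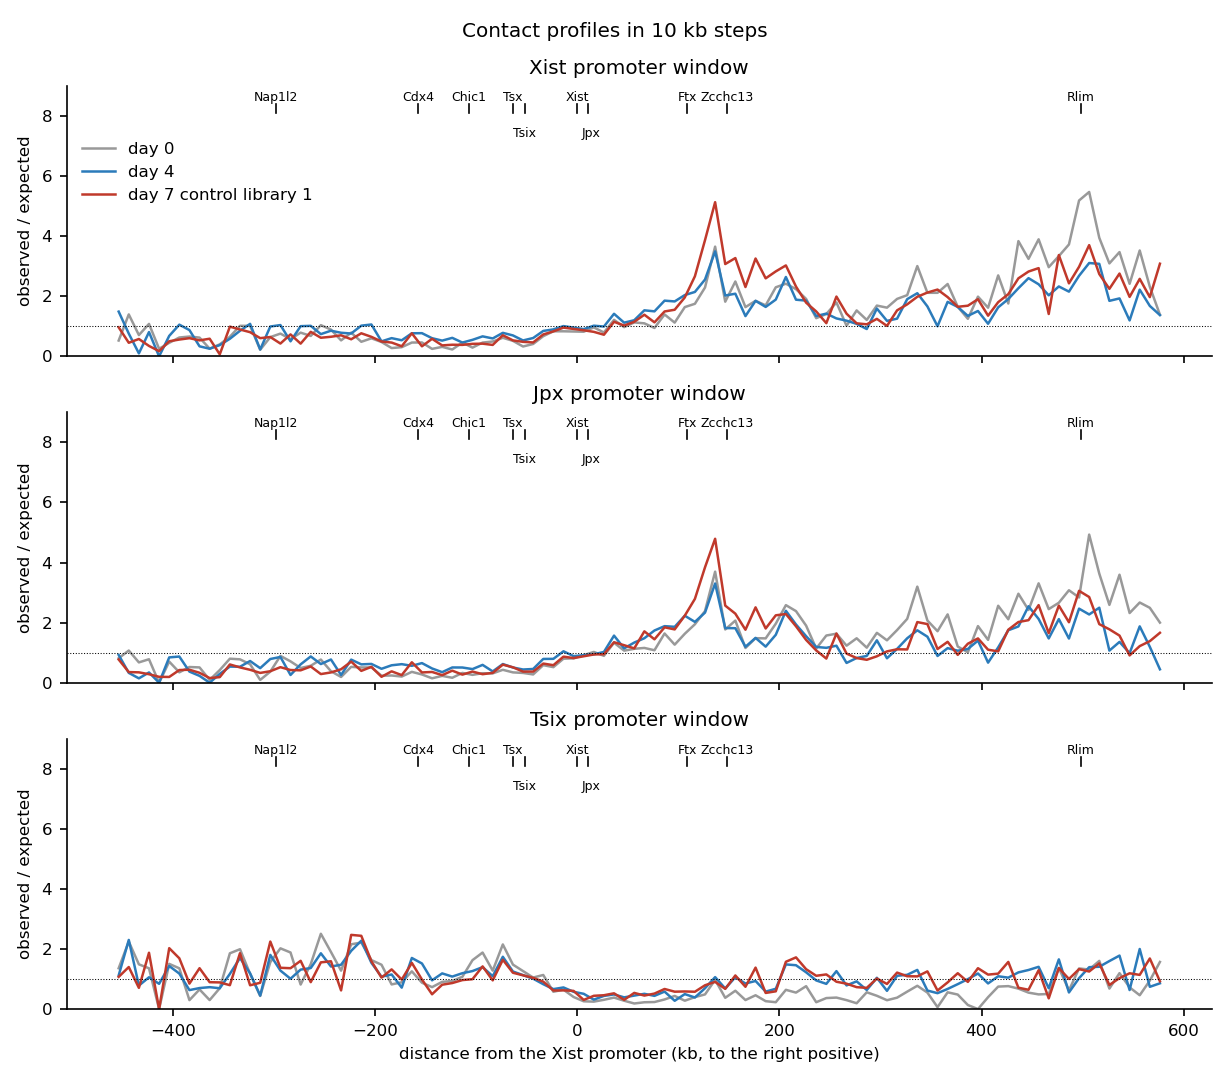
Observed over expected contact of the Xist, Jpx and Tsix promoter windows with 10 kb steps across the region, against the distance from the Xist promoter in kb, on day 0 (grey), day 4 (blue) and day 7 control library 1 (red); ticks mark gene middles or promoters. The day 7 line rises above the other lines over the start of Ftx and Zcchc13 for Xist and Jpx, reaching 5.13 and 4.79, and the lines of Tsix lie lower there.

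From the Tsix side, 1 contact with Ftx was called as a rise. Tsx, a gene next to Tsix, contacted Ftx at 0.473, 0.543 and 0.649 (276, 323 and 363 contacts). The first step was not called (0.20, -0.04 to 0.44) and the second was a rise (0.26, 0.03 to 0.48). The 2 steps were of similar size, with intervals that overlap widely. Among the 25 pairs across the border no other rise was called. Its lower bound was close to 0, and the call was lost with 5 kb flanks and when maps were scaled to their totals. Mus stood at 0.853 and cas at 0.478. Tsx-Zcchc13 stood at 0.712, 0.819 and 0.932 (0.19, -0.17 to 0.55), and Chic1-Zcchc13 at 0.438, 0.661 and 0.782 (0.24, -0.10 to 0.59). Nap1l2, a nucleosome assembly protein gene, had higher ratios with wider intervals, at 0.574, 0.403 and 0.558 with Ftx (0.47, -0.02 to 0.96) and 0.653, 0.534 and 0.746 with Zcchc13 (0.48, -0.32 to 1.29). Single other settings called Nap1l2-Ftx (0.54 with recovered contacts), Nap1l2-Zcchc13 (0.56 with 20 kb flanks) and Tsix-Ftx (0.38 with 5 kb flanks) as rises.

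Contacts of Chic1 with Xist and Jpx rose by day 4 and fell again by day 7. Both steps share the day 4 library, so a lost gain and a day 4 value that was high by itself cannot be told apart. Chic1, a protein-coding gene of the Tsix side, contacted Xist at 0.392, 0.584 and 0.397 (173, 250 and 176 contacts). The log2 ratio was 0.58 (0.29 to 0.87) in the first step and -0.56 (-0.84 to -0.27) in the second, and 0.02 (-0.29 to 0.33) for day 7 over day 0. Chic1-Jpx stood at 0.273, 0.479 and 0.321 (105, 175 and 117 contacts), with 0.81 (0.45 to 1.16), then -0.58 (-0.92 to -0.23), and 0.23 (-0.16 to 0.62) for day 7 over day 0. Neither pair differed from day 0 beyond counting error at day 7, although both intervals leave room for a part of the gain. The alleles were at 0.426 (cas) and 0.466 (mus) for Chic1-Xist and at 0.294 and 0.402 for Chic1-Jpx, all below the day 4 level.

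Contacts of Cdx4, a homeobox gene further left, with these promoters were still above day 0 at day 7. Cdx4-Jpx stood at 0.258, 0.592 and 0.442 (46, 92 and 73 contacts), with 1.2 (0.67 to 1.72), then -0.42 (-0.88 to 0.03), and 0.78 (0.23 to 1.32) for day 7 over day 0. Cdx4-Xist stood at 0.385, 0.693 and 0.539 (76, 130 and 102 contacts), with 0.85, then -0.36 (-0.75 to 0.02), and 0.49 (0.04 to 0.93) over day 0. The later step of both had an interval that just held 0, and it was called as a fall with 20 kb flanks and with maps scaled to their totals. Cdx4-Tsix, within the Tsix side, rose from 0.962 to 1.27 and fell back to 0.973 (184, 240 and 179 contacts; 0.40, 0.11 to 0.68, then -0.38, -0.67 to -0.09). Whether the Cdx4 and Chic1 pairs differ in how much they lost was not tested.

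Steps of 50 kb placed most of these falls along the Tsix side. From the Xist window 6 of 21 such steps fell (28.6%) and 4 rose (19%), and from the Jpx window 6 fell (28.6%) and 2 rose (9.52%). On the Xist side, the step at 100665001 to 100715000, which holds both promoters, fell from Xist (-0.36, -0.52 to -0.21) and from Jpx (-0.20, -0.35 to -0.06). The step at 100715001 to 100765000 also fell from Xist (-0.22, -0.38 to -0.06). From the Tsix window 0 of 21 rose (0%) and 1 fell (4.76%), the step at 100515001 to 100565000, which went through 0.945, 1.27 and 0.892 (later step -0.51, -0.74 to -0.27). The step at 100565001 to 100615000, over the end of Chic1 and the start of Tsx, went through 0.489, 0.650 and 0.449 from Xist (0.41, 0.14 to 0.69, then -0.53, -0.81 to -0.26). At 100515001 to 100565000, from Cdx4 to the start of Chic1, the levels were 0.326, 0.626 and 0.469 (0.94, 0.57 to 1.32, then -0.42, -0.75 to -0.08). From Jpx the same steps gave 0.343, 0.498 and 0.373, and 0.226, 0.513 and 0.381. The first was thus back near its day 0 level from both promoters, and the second stayed above it.

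Other contacts within the Tsix side also fell in the later step. Chic1-Tsix stood at 1.32, 1.21 and 1.01 (833, 682 and 546 contacts) and Chic1-Tsx at 1.16, 1.11 and 0.957, with log2 ratios for day 7 over day 4 of -0.26 (-0.43 to -0.09) and -0.21 (-0.35 to -0.07). Neither had moved beyond counting error by day 4 (-0.13, -0.29 to 0.03, and -0.06, -0.19 to 0.07). These falls thus followed no gain. Both levels were already somewhat lower at day 4 than at day 0, and whether the falls began only after day 4 was not tested. In the allelic maps, which combine 2 libraries, the day 7 levels lay above those of library 1 and below day 4. They were 1.05 (cas) and 1.06 (mus) for Chic1-Tsix, 1.02 and 1.09 for Chic1-Tsx, and 1.02 and 1.07 for Cdx4-Tsix. The calls of Chic1-Tsix, Chic1-Tsx and Cdx4-Tsix were lost with 5 kb flanks (-0.25, -0.14 and -0.34). Those of Chic1-Tsix and Cdx4-Tsix were also lost in balanced maps (-0.18 and -0.21). Tsx-Xist went through 0.491, 0.631 and 0.519 (later step -0.28), but this call was lost under 5 of 9 other settings, and with 5 kb flanks the ratio was 0.11. Xist-Jpx, whose windows adjoin, went through 0.922, 1.00 and 0.859 (-0.22, -0.41 to -0.03), a call lost under 4 of 8 other settings, of which 5 kb flanks gave 0.11. Nap1l2-Jpx, with the lowest ratio of the 45 pairs, rested on 35, 42 and 23 contacts (-0.80, -1.57 to -0.03) and lost its call under 4 of 9 settings.

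Rlim, which encodes a ubiquitin ligase that relieves repression of Xist, lost contact with Ftx and Chic1. Ftx-Rlim stood at 2.13, 2.02 and 1.53 (365, 381 and 285 contacts), flat in the first step (-0.08, -0.29 to 0.14) and lower in the second (-0.40, -0.63 to -0.17). Cas was at 1.78 and mus at 0.978. Chic1-Rlim stood at 1.29, 1.5 and 0.887 (56, 99 and 56 contacts), with cas at 0.907 and mus at 1.14. Its log2 ratios were 0.22 (-0.27 to 0.71) and then -0.76 (-1.25 to -0.27). Both falls of the later step held under all 9 other settings, which reuse the same day 4 library. Day 7 over day 0 was -0.48 (-0.71 to -0.25) for Ftx-Rlim and -0.54 (-1.09 to 0.02) for Chic1-Rlim. Chic1-Rlim was highest at day 4, so a late fall and a day 4 value that was high by itself cannot be told apart. The contacts of Rlim with Xist and Jpx, in contrast, had fallen early. Xist-Rlim stood at 4.84, 2.77 and 3.24 (204, 118 and 144 contacts), with -0.80 (-1.14 to -0.47) and then 0.23 (-0.13 to 0.58). Jpx-Rlim stood at 3.57, 2.22 and 2.81 (-0.68, -1.07 to -0.30, then 0.34, -0.06 to 0.73). In these pairs no recovery was detectable at this depth, and the upper bounds allow one of up to 0.58 and 0.73 on the log2 scale. Day 7 over day 0 was -0.58 (-0.89 to -0.26) for Xist-Rlim and -0.34 (-0.70 to 0.01) for Jpx-Rlim. Jpx-Rlim thus no longer differed from day 0 beyond counting error. Right of Rlim, contact of Xist with 101215001 to 101265000 had fallen early (-0.70, -1.12 to -0.27) and then rose (0.56, 0.16 to 0.97). That rise lost its call under 3 of 7 other settings, and from Jpx the later step was 0.17 (-0.36 to 0.70). Zcchc13-Rlim stood at 2.83, 2.15 and 1.74 (-0.40, -0.72 to -0.07, then -0.30, -0.67 to 0.06).

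**Figure D3:**
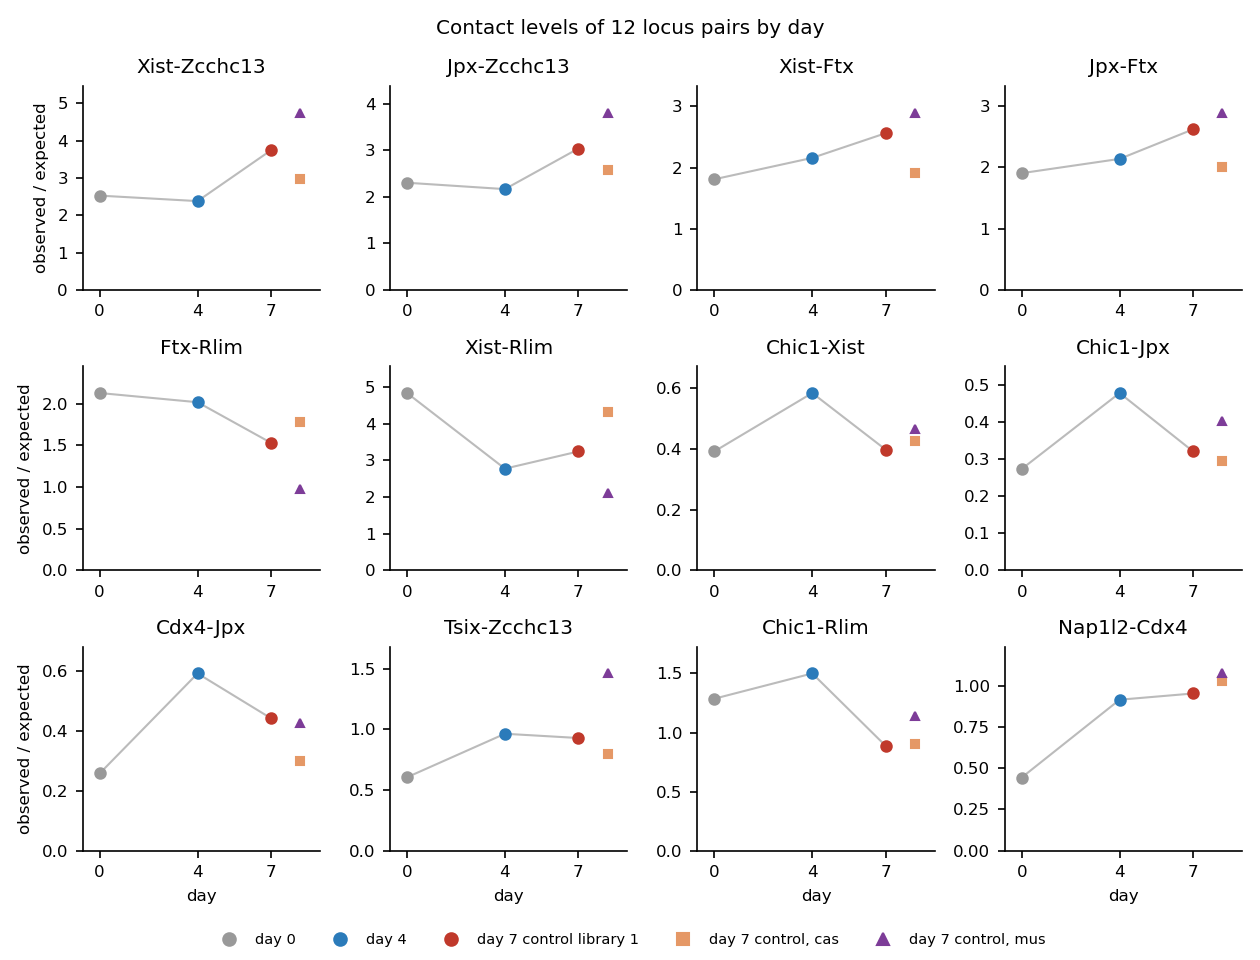
Observed over expected contact of 12 gene pairs by day (circles: day 0, day 4 and day 7 control library 1, 1 library each) and in the day 7 control allelic maps (orange squares: cas; purple triangles: mus, set to the right of day 7). Pairs of the top row are at their highest of the 3 days at day 7, such as Xist-Zcchc13 at 3.74; Chic1-Xist and Chic1-Jpx peak at day 4, at 0.584 and 0.479.

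Several early changes had settled by day 4 within counting error. Nap1l2-Cdx4, within the Tsix side, stood at 0.443, 0.914 and 0.952 (69, 115 and 134 contacts; 1.05, 0.58 to 1.52, then 0.06, -0.33 to 0.44). Tsix-Zcchc13, across the border, stood at 0.605, 0.963 and 0.928 (67, 110 and 100 contacts; 0.67, 0.22 to 1.12, then -0.05, -0.45 to 0.35). Chic1-Ftx stood at 0.354, 0.542 and 0.506 (257, 418 and 365 contacts; 0.61, 0.38 to 0.85, then -0.10, -0.31 to 0.11). The levels of these 3 pairs at day 7 were close to those of day 4 and above those of day 0. Tsix-Xist (0.405, 0.580 and 0.522) and Tsix-Ftx (0.433, 0.586 and 0.656) likewise stayed above day 0, by 0.36 (0.02 to 0.71) and 0.60 (0.31 to 0.89). Among early falls, Cdx4-Chic1 stood at 1.33, 1.12 and 1.13 (-0.24, -0.38 to -0.11, then 0.01, -0.14 to 0.15), the narrowest interval around 0 of those named here. Tsx-Tsix stood at 1.58, 1.32 and 1.25 (-0.26, -0.41 to -0.11, then -0.08, -0.24 to 0.08). With 20 kb flanks, however, the interval of its later step excluded 0.

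Dividing the region into 6 segments between the genes, a division made after the pairs had been seen, gave 5 of 21 segment pairs that rose (23.8%) and 4 that fell (19%) in the later step. From day 0 to day 4, 9 rose (42.9%) and 7 fell (33.3%). The contact of the Cdx4 to Tsx segment with the Tsix and Xist segment had the lowest ratio, with levels of 0.924, 0.949 and 0.770 (2381, 2183 and 1745 contacts; 0.04, -0.06 to 0.13, then -0.30, -0.41 to -0.20). That segment had gained contact with the Jpx to Zcchc13 segment by day 4 (0.349 to 0.548; 0.65, 0.54 to 0.76), and this gain was kept at 0.523 (-0.07, -0.17 to 0.04). Contact within the Jpx to Zcchc13 segment, which holds Ftx, rose in both steps, at 1.24, 1.36 and 1.48 (0.13, 0.08 to 0.18, then 0.12, 0.08 to 0.17). Contact within the segment of Rlim and the sequence to its right also rose in both, at 0.811, 0.904 and 1.03 (0.16, then 0.19, 0.09 to 0.29). Its contact with the segment to its left fell in both, at 1.33, 1.12 and 1.03 (-0.25, then -0.12, -0.18 to -0.06). Levels are relative to each map's own average, so rises in some segments go with falls in others.

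**Figure D4:**
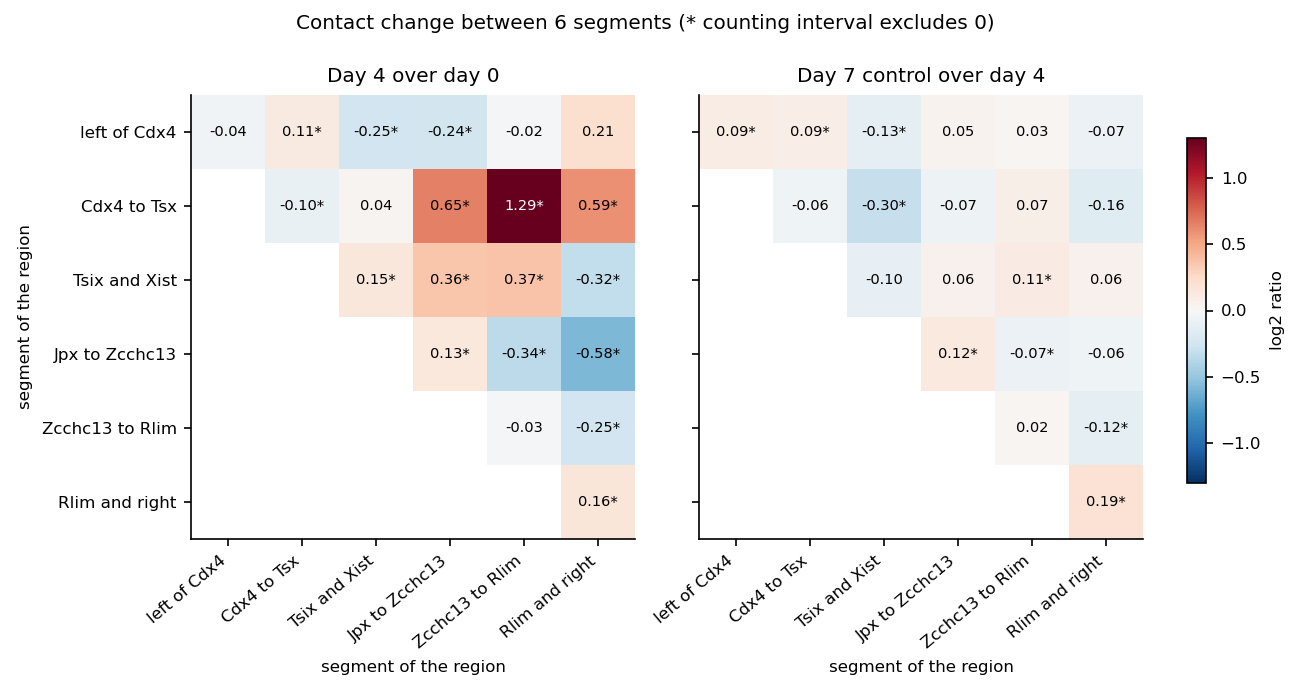
Log2 ratio of observed over expected contact within and between 6 segments of the region, day 4 over day 0 (left) and day 7 control over day 4 (right), on the same colour scale; an asterisk marks an interval for counting error that excludes 0. In the right panel values run from -0.30, for Cdx4 to Tsx with Tsix and Xist, to 0.19 within the segment of Rlim, against -0.58 to 1.29 in the left panel.

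Contact between the sides fell in the later step at separations under 100 kb. With the region split in the middle of Xist, the level of all contacts between the sides was 0.739, 0.885 and 0.878 on the 3 days, and the later step gave -0.01 (-0.06 to 0.04). At separations of 50 to 100 kb the level was 0.468, 0.646 and 0.532 (572, 838 and 659 contacts), with 0.47 (0.30 to 0.63) and then -0.28 (-0.44 to -0.13). At 10 to 50 kb it was 0.621, 0.817 and 0.724, with a later step of -0.17 (-0.34 to -0.01). At 200 to 500 kb it was 0.510, 0.791 and 0.789 (3908, 7258 and 7001 contacts; 0.63, 0.57 to 0.70, then -0.00, -0.06 to 0.05). Contact across the border was thus lower than at day 4 below 100 kb, while at 200 to 500 kb the early gain was kept within counting error. Both steps share the day 4 library, so below 100 kb a partly lost gain and a high day 4 value cannot be told apart. Over all separations the interval of the later step lay below 0 when the median was used as the expected value (-0.083) or when maps were scaled to their totals (-0.11). The share of the signal of a map that lay at 10 to 50 kb went from 36.1% to 31.4% and back to 33.2%, a later rise of 1.73 percentage points (1.2 to 2.26), and the share at 200 to 500 kb fell by 0.708 points (-1.17 to -0.25).

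Insulation scores are low where a border lies. For each bin the mean signal linking the 100 kb to its left with the 100 kb to its right was divided by the map's median of that mean and put on a log2 scale. Between day 4 and day 7 the score was lower in 20 of 170 bins (11.8%) and higher in 91 (53.5%). From day 0 to day 4 the score was higher in 24.7% and lower in 33.5%. The lower bins lay mainly in a run from 100590001 to 100665000, from the end of Chic1 through Tsx and Tsix into Xist, and a run from 100670001 to 100690000 over the promoters of Xist and Jpx. At the Xist promoter the score was -1.0, -0.53 and -0.64, so day 7 lay between the other days (0.46, 0.37 to 0.56, then -0.11, -0.20 to -0.01). At the Tsix promoter it was -0.36, -0.38 and -0.52 (-0.01, -0.10 to 0.07, then -0.15, -0.24 to -0.05), and day 7 was the lowest of the 3 days. Among differences at least 50 kb apart, the lowest was at 100605001 to 100610000, beside the start of Tsx, at -0.18 (-0.28 to -0.09), and the next lowest at 100670001 to 100675000, in Xist, at -0.12 (-0.21 to -0.02). With windows of 200 kb the later difference was 3.6e-05 at Xist and 0.065 at Jpx, so the lower score at these promoters was not seen at the longer reach, while at Tsix the difference was -0.17 (-0.24 to -0.11).

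The highest gain in score was inside Ftx, at 100760001 to 100765000, with 0.62, 0.66 and 0.98 (0.33, 0.27 to 0.38), between the starts of Xist and Ftx, whose contact rose. The next highest at least 50 kb from it and from each other were at 100445001 (0.30, 0.19 to 0.41) and at 100335001 (0.28, 0.12 to 0.44), to the right and left of Nap1l2. How many bins counted as higher or lower depended on the scaling. When scores were taken relative to the map's total, 18 bins were higher and 84 lower, and with maps balanced to equal bin totals 23 were higher and 57 lower. The differences at the Xist, Jpx and Tsix promoters stayed below 0 under both of these.

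**Figure D5:**
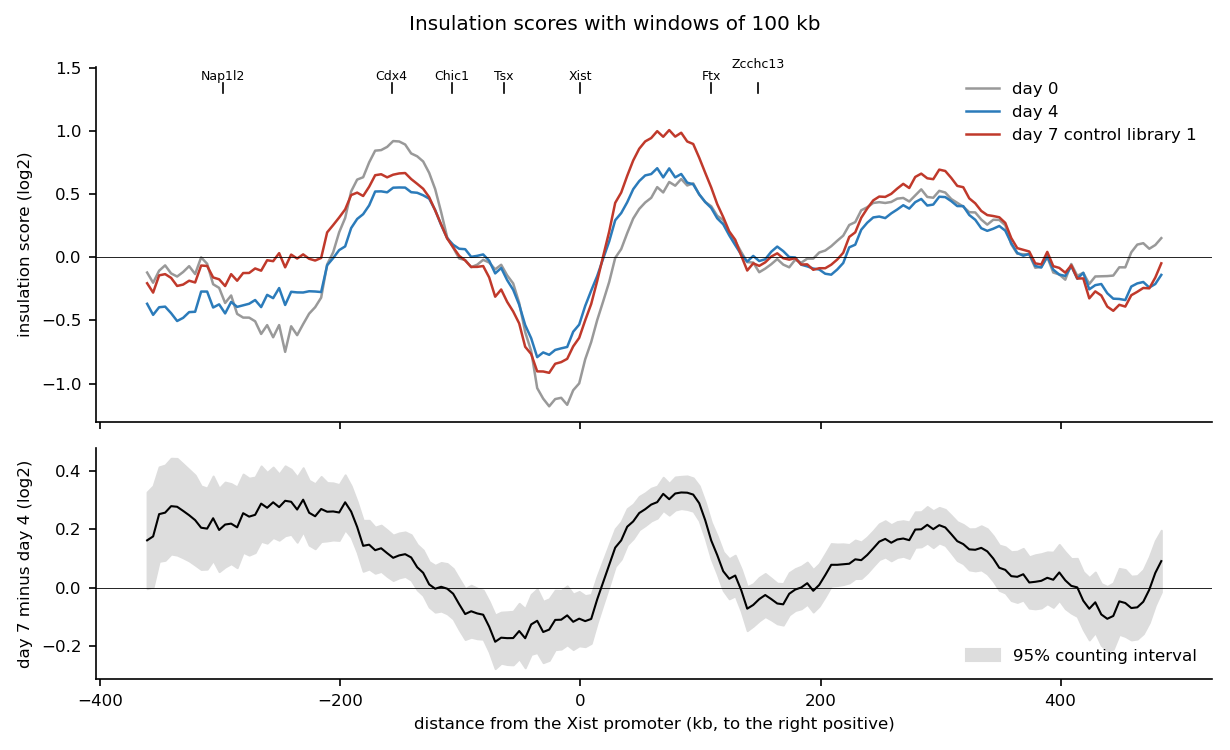
Insulation score (log2, upper panel) on day 0, day 4 and day 7 control library 1, and the difference of day 7 minus day 4 with its 95% interval for counting error (lower panel), against the distance from the Xist promoter in kb. The lowest scores lie left of the Xist promoter, at -1.18, -0.79 and -0.91 on days 0, 4 and 7, and the difference is highest over Ftx, at 0.33.

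Windows of 30 kb by 30 kb at 50 kb or more were ranked to find the largest later changes without regard to the gene list. Among 14946 windows with at least 20 contacts in both maps, the highest ratio joined Nap1l2 (100365001 to 100395000) to the Ftx start and Zcchc13 (100800001 to 100830000). It had levels of 0.702, 0.327 and 0.816 (27, 20 and 47 contacts; -1.10, -1.98 to -0.23, then 1.32, 0.54 to 2.11), so the day 4 value was the one apart. The day 7 alleles were at 0.596 (cas) and 0.804 (mus) there. Nap1l2 was also an end of another of the 4 highest, with 100835001 to 100865000 (19, 21 and 36 contacts; 1.07, 0.27 to 1.88). In that window the day 7 alleles were at 0.466 (cas) and 0.522 (mus), nearer to the day 4 level of 0.410 than to the 0.862 of library 1. The remaining pair joined stretches without a listed gene, at 100295001 and 100420001 (1.21) and at 100235001 and 100445001 (1.16). Of the 4 lowest windows, 1 covers a locus that is not described here. The others joined Nap1l2 (100350001 to 100380000) to the end of Tsix and Jpx (100680001 to 100710000), with 0.237, 0.640 and 0.286 (14, 38 and 21 contacts; 1.44, then -1.16, -1.97 to -0.35). They also joined 100460001 to 100490000 to the same stretch (0.323, 0.609 and 0.300; -1.02, -1.63 to -0.42) and 100405001 to 100435000 to Ftx (0.478, 0.613 and 0.289; -1.08, -1.84 to -0.32). These extremes rest on few contacts and were picked for their size from overlapping windows, so they overstate the change.

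By the same rule, 3 of the 4 highest early gains cover that locus. The remaining window joined the end of Chic1 and the start of Tsx (100580001 to 100610000) to the 30 kb from 100860001, right of Zcchc13, with levels of 0.241, 1.07 and 1.12 (31, 140 and 134 contacts). It had gained 2.15 (1.56 to 2.75) by day 4 and changed by 0.06 (-0.30 to 0.42) afterwards, so this gain was kept within counting error. The alleles were at 1.02 (cas) and 1.71 (mus).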

How the data were processed

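Capture Hi-C maps of day 4 and day 7 control library 1 were compared, with day 0 and the day 7 control alleles beside them, so 5 of the 7 maps were used. The authors deposited a square table per map, holding a signal for every bin with every bin. Bins are 5 kb of mm9, per the file headers. MboI cut the nuclei and biotinylated RNA probes selected the region, per the labels' protocols. The 1067 deposited probes left 22 of 210 bins without one. The tools named, per the submitters' processing notes, are Juicer 1.5.3, HOMER 4.8, Novoalign 3.00.02 and cutadapt 1.2.1, without their roles. Not given in the sources used here are read filters, duplicate removal, assignment to alleles and the correction of the signal.

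Values above 0 equalled a whole number of contacts times a factor for each of its bins (between 99.97% and 100% of values within 0.01 of a whole number). Intervals are log-normal, from the Poisson variance of the weighted contacts, and leave out error in the factors and the spread between libraries. Pairs with 3 contacts or fewer in either map had no ratio. GENCODE (mm9) gave the gene positions. Alternatives were an expected value from the median, maps scaled to their totals, leaving out bins under 0.25 of the median total, balancing, separations of 50 kb or more, bins with a probe, recovered contacts, other flanks (5 and 20 kb), insulation windows (50 and 200 kb), tiles (20 and 50 kb) and another split. The recovery and the intervals were tested on simulated maps with Poisson counts, the same assumption that the intervals make. Copies made by PCR and the spread between libraries were not simulated, so the coverage of the intervals in real maps was not tested. The named pairs were all 45 of the 10 genes, and the windows were the 4 highest and 4 lowest that share no bin pair. One locus of the region is not reported here. The comparison, genes and lists were chosen with earlier results of these data known, and the segments, 10 kb steps and motif after the values were seen. Python 3.11.15, numpy 2.4.6 and matplotlib 3.10.9 were used.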

Additional observations from a re-analysis of the deposited data

How the results depend on the processing

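Of the 15 gene pairs called between day 4 and day 7, 7 kept their direction and their call under up to 9 other settings: Xist-Zcchc13, Xist-Ftx, Jpx-Ftx, Chic1-Xist, Chic1-Jpx, Chic1-Rlim and Ftx-Rlim. With flanks of 5 kb, which leave fewer contacts per pair, 8 of the 15 calls were lost, 4 pairs fell in place of 10, and Tsx-Xist and Xist-Jpx turned positive (0.11 and 0.11). Of the 30 pairs not called, 18 were called under no setting. Of the 9 segment calls 4 held throughout, and left of Cdx4 with Cdx4 to Tsx turned negative with scaling to the map total (-0.017). Of 54 called steps (10 and 50 kb) of the Xist and Jpx profiles 27 held throughout, and Xist with 100710001 to 100720000 turned positive at 50 kb or more (0.14). For tile pairs, the percent that rose (5.12) was 7.88 with the median as the expected value, 2.4 with the map total, 8.16 with recovered contacts and 8.23 with 50 kb tiles, and the percent that fell (7.04) was 10.7 with the map total and 4.53 with 20 kb tiles. Contacts between the sides (-0.01) were at -0.083 with the median and -0.11 with the map total. Bins with a higher insulation score (91) numbered 18 with the map total, 23 with balancing, 43 with probed bins only, 28 with 50 kb and 37 with 200 kb windows. Bins with a lower score (20) numbered 84, 57 and 59 with the first 3 of these, 33 at 50 kb or more and 37 with 200 kb windows. With 200 kb windows the difference was 0.065 at Jpx and 3.6e-05 at Xist. The cause of these shifts was not tested. Insulation was not run with the median as the expected value, since the score uses none. No paired analysis was possible because replicate numbers are shared only between the 2 day 7 groups and day 4 has 1 library, and for the same reason no library could be left out.

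Depth limits these maps to changes over windows, since 30.4% and 30.2% of bin pairs held no contact, and the median interval of a tile pair was 0.995 wide on the log2 scale.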
